A study of Populus tremula x Populus alba with 2 samples.

Results

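The SND2-type NAC factors of poplar are 4 genes, chosen by identifier as the poplar homologues of the Arabidopsis wood regulators SND2 and SND3, among 41335 poplar genes in the deposited table. They are Potri.007G135300, Potri.017G016700, Potri.004G049300 and Potri.011G058400, and they form 2 duplicate pairs, on chromosomes 7 and 17 and on chromosomes 4 and 11. RNA came from stem internodes 1 to 15, with the bark removed, of 2-month-old coppiced hybrid aspen (Populus tremula x Populus alba) grown in a greenhouse. The transgenic plants were of the line MOMT4-0, which expresses an engineered 4-O-methyltransferase acting on lignin precursors under the promoter of the bean PAL2 gene, and they were set against WT control plants. Each library was made from about 100 mg of stem pooled from 2 to 3 plants, so there is 1 library per line, 1 transgenic line, and no replicate check of any difference. No p value is given. The comparison asks whether expressing MOMT4 went along with changes in transcripts of the regulators of wood formation.

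NAC proteins are plant transcription factors that share a conserved DNA-binding domain. In Arabidopsis, SND2 and SND3 act below the master NAC switches that start the thickening of secondary walls in fibre cells, and changing their activity there changes wall thickness in fibres. They belong to a tiered network in which NAC switches and MYB factors control the enzymes that make cellulose, xylan and lignin. Which poplar pair is closer to SND2 and which to SND3 was not given in the sources used here, so the pairs are called by their chromosomes.

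Transcripts of all 4 genes were found in both libraries, and their order was the same in both, with the chromosome 7 and 17 pair above the chromosome 4 and 11 pair. Levels are in RPKM, that is, read counts scaled for exon length and for the mapped reads of the library, and so can be compared between genes. None of the 4 genes was 2-fold apart between the lines. In MOMT4-0 the summed level of the 4 was 54.5 RPKM, against 59.7 RPKM in the WT control, or 91.2% of the control. Less RNA per cell and fewer cells of a type cannot be told apart in such bulk samples.

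Potri.007G135300 lies on chromosome 7 from 14820544 to 14822855 and spans 2312 bases in the table's coordinates, whose genome build was not given in the sources used here. It was the most abundant of the 4, with 20.1 RPKM in MOMT4-0 and 22.2 RPKM in the WT control. The MOMT4-0 level was 90.2% of the control level. Among the 22944 poplar genes whose mean over both libraries reached 1 RPKM, it stood above 68.3% of genes in MOMT4-0 and above 71.0% in the control.

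Its duplicate, Potri.017G016700, lies on chromosome 17 from 1422936 to 1425801 and spans 2866 bases. It had 19.5 RPKM in MOMT4-0 and 19.004 RPKM in the WT control, and was alone among the 4 in having the higher value in MOMT4-0, at 1.03 times the control. It stood above 67.5% of genes in MOMT4-0 and above 66.8% in the control. Both copies of this pair therefore ranked in the upper part of the stem transcripts in both lines.

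The other pair was less abundant. Potri.011G058400, on chromosome 11 from 5183864 to 5186563 and spanning 2700 bases, had 8.77 RPKM in MOMT4-0 and 10.6 RPKM in the WT control, where the MOMT4-0 level was 82.4% of the control level. Potri.004G049300, on chromosome 4 from 3839158 to 3842192 and spanning 3035 bases, had 6.13 RPKM in MOMT4-0 and 7.82 RPKM in the WT control, or 78.3% of the control. Both values of this pair were lower in MOMT4-0, and Potri.004G049300 was the least abundant of the 4 in both libraries. It stood above 32.8% of genes in MOMT4-0 and above 39.2% in the control, and Potri.011G058400 above 42.6% and 48.5% in the same order. None of the 4 genes shares its position with another row of the table.

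**Figure D1:**
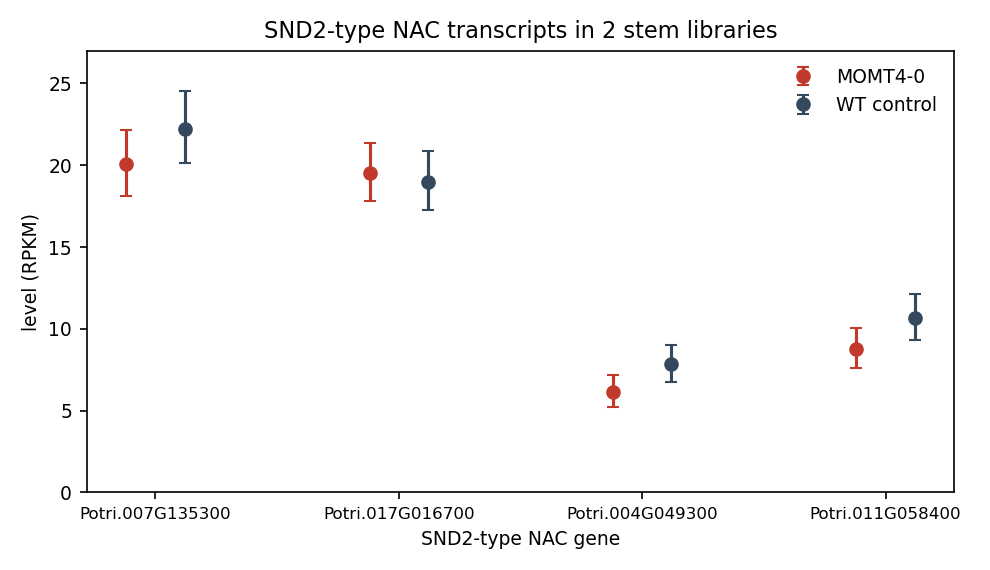
Level in RPKM (vertical axis) of each SND2-type NAC gene in the MOMT4-0 library and in the WT control library; each point is 1 library and the bars are the narrowest 95% counting intervals the data allow, not replicate error. The bars of the 2 lines overlap for each gene, but such overlap does not compare the lines. The narrowest interval of the fold leaves out 1 for Potri.004G049300 (0.630 to 0.967) and, just, for Potri.011G058400 (0.680 to 0.9997). It includes 1 for the other 2 genes. The chromosome 7 and 17 copies stand at 19.004 to 22.2 RPKM, above the other pair at 6.13 to 10.6 RPKM.

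The pair sums kept the same order. The chromosome 7 and 17 copies together had 39.6 RPKM in MOMT4-0 and 41.2 RPKM in the WT control, and the chromosome 4 and 11 copies together had 14.9 RPKM in MOMT4-0 and 18.5 RPKM in the WT control. The more abundant pair held 72.7% of the summed level of the 4 genes in MOMT4-0 and 69.1% in the control. The lower pair was at 80.7% of its control sum and the higher pair at 96.0%. Whether the pairs differ in this was not tested, since there is 1 library per line.

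Within the more abundant pair the copies were near equal in RPKM, with Potri.007G135300 the slightly higher one in both libraries. Potri.007G135300 held 50.7% of its pair in MOMT4-0 and 53.9% in the WT control, a difference of -3.25 percentage points. The narrowest counting intervals of these shares, 47.3% to 54.0% in MOMT4-0 and 50.5% to 57.3% in the control, overlap. Within the other pair Potri.011G058400 was the major copy in both libraries, with 58.9% of its pair in MOMT4-0 and 57.6% in the WT control. Its narrowest intervals, 53.7% to 63.9% in MOMT4-0 and 52.8% to 62.3% in the control, also overlap. The reads were from hybrid aspen and were aligned to the P. trichocarpa genome with 1 mismatch allowed, so copies that differ from the reference by unequal amounts could lose unequal numbers of reads, and near-identical stretches of 2 copies could share them. The part of this in the shares was not tested.

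**Figure D2:**
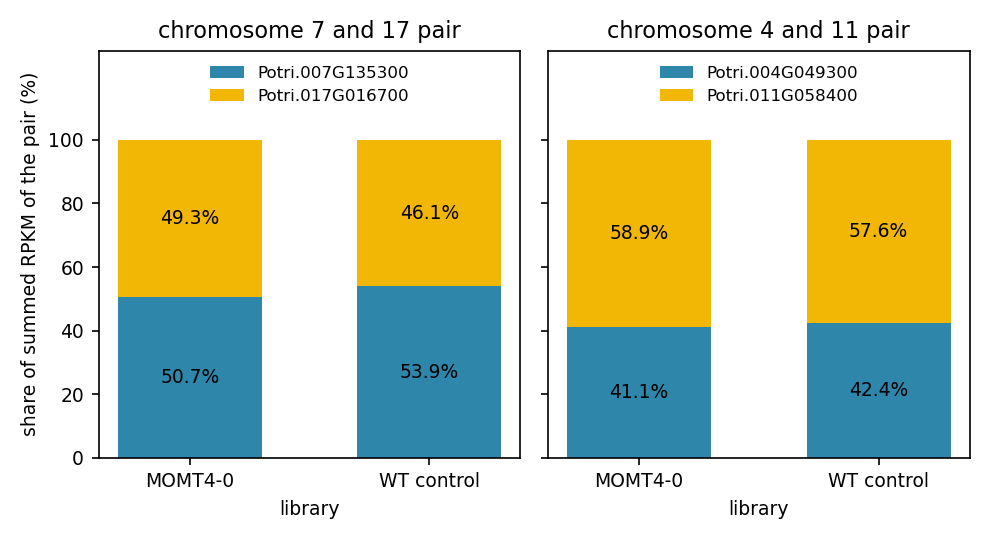
Share of each copy in the summed RPKM of its duplicate pair (vertical axis, percent) in the MOMT4-0 and WT control libraries; bars start at 0 and each is 1 library. Potri.007G135300 held 50.7% in MOMT4-0 and 53.9% in the control, and Potri.011G058400 held 58.9% and 57.6% in the same order, both over 50%; the narrowest interval of the first value, 47.3% to 54.0%, includes an equal split.

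Differences between the lines are given below as log2((MOMT4-0 + 1) / (control + 1)) in RPKM, the added 1 RPKM being a pseudocount, a scale that understates the change of low genes. On it Potri.007G135300 was at -0.14, Potri.017G016700 at 0.04, Potri.011G058400 at -0.25 and Potri.004G049300 at -0.31. 3 of the 4 values were thus lower in MOMT4-0, and their median was -0.20. Of all 22944 poplar genes with a mean of 1 RPKM or more, 50.9% had the lower value in MOMT4-0, and the median log2 ratio was -0.0057. 0 of the 4 genes were at least 2-fold apart, where 1.77% of those 22944 genes were, 1.08% higher and 0.684% lower in MOMT4-0. With a background this low, no call among 4 genes says little about them as a group.

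The spread of the ratio depends on the level, so each gene was set beside the 200 poplar genes nearest to it in mean RPKM, as a description of these 2 libraries. Around Potri.004G049300, with means of 6.88 to 7.07 RPKM, the central 95% of genes lay between log2 ratios of -0.80 and 0.78, and 13.5% of genes had a lower ratio than its -0.31. Around Potri.011G058400, with means of 9.58 to 9.83 RPKM, the central 95% lay between -0.62 and 0.61, and 17.5% of genes were lower than its -0.25. Both copies of this pair therefore lay in the lower part of the range of their peers but inside its central 95%. In size, 29.0% of genes of like mean differed more than Potri.004G049300 did in either direction, and 34.5% more than Potri.011G058400.

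The chromosome 7 and 17 copies lay closer to the middle. Around Potri.007G135300, with means of 20.8 to 21.5 RPKM, the central 95% of genes lay between -0.44 and 0.57, and 34.5% of genes had a lower ratio than its -0.14. Around Potri.017G016700, with means of 18.96 to 19.58 RPKM, the range was -0.39 to 0.62, and 59.0% of genes were lower than its 0.04. In size, 120 of the 200 genes of like mean differed more than Potri.007G135300, and 174 of 200 more than Potri.017G016700. The 4 sets of peers held 1 to 7 genes at least 2-fold apart, most of them around the least abundant gene.

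**Figure D3:**
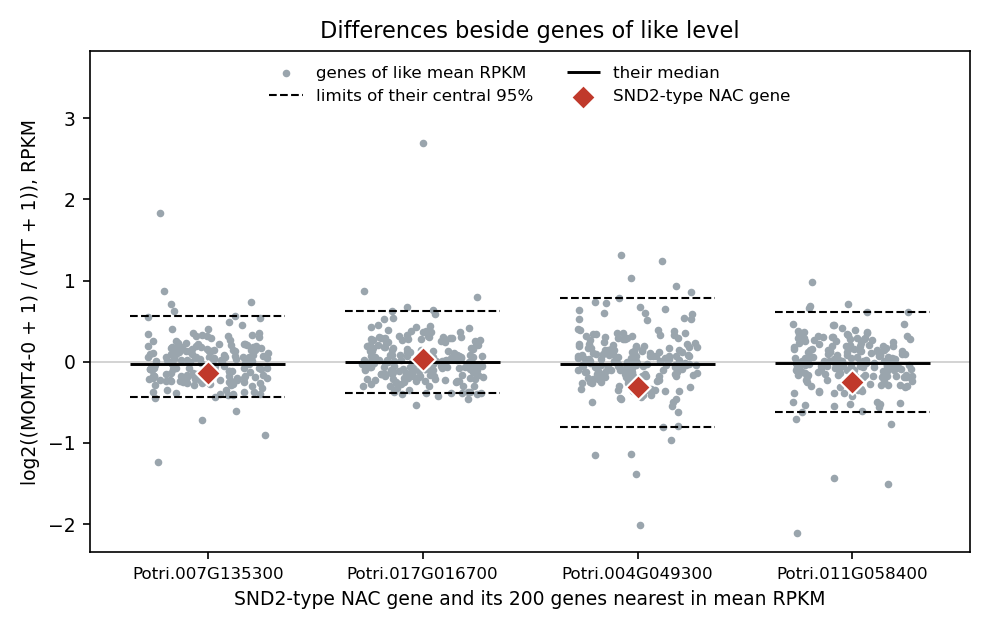
Log2 ratio of MOMT4-0 over WT control with a pseudocount of 1 RPKM (vertical axis) of each SND2-type NAC gene (red diamond) beside its 200 poplar genes nearest in mean RPKM (grey points; solid line their median, dashed lines the limits of their central 95%, sideways scatter for legibility only). The diamonds, at -0.14, 0.04, -0.31 and -0.25 from left to right, all lie between the dashed lines.

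The reads behind these values set how small a difference could be seen. The spacing of low RPKM values shows which totals the authors' scaling used, close to 9460000 reads for MOMT4-0 and 8750000 for the WT control, and that 215 bases of a single-exon gene were left out of its counted length. Since a gene's exons cannot exceed its span, these figures set the most reads each value can stand for. For Potri.007G135300 that was 398 reads in MOMT4-0 and 408 in the control, and for Potri.017G016700 490 and 441 in the same order. For Potri.011G058400 it was 206 reads in MOMT4-0 and 231 in the control. For Potri.004G049300 it was 163 reads in MOMT4-0 and 193 in the control. Introns would make the true numbers smaller, so an interval at these numbers is the narrowest possible, and all intervals cover counting error only.

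At these greatest read numbers, the 95% interval (exact Clopper-Pearson on the split of reads) of the fold of MOMT4-0 over control was 0.784 to 1.04 for Potri.007G135300, which includes 1. For Potri.017G016700 it was 0.902 to 1.17, which also includes 1. For Potri.011G058400 it was 0.680 to 0.9997, so its upper end lies just under 1 at this greatest read number and moves up with fewer reads. For Potri.004G049300 it was 0.630 to 0.967, which does not include 1. The narrowest interval thus included 1 for 2 of the 4 genes. If reads were counted whole, the values of Potri.004G049300 would stand for 94 reads in MOMT4-0 and 111 in the control. Up to its greatest number no other pair gives its ratio within rounding, where 0.077 such pairs were foreseen by chance. If whole counting holds, its fold would be 0.783 with a 95% interval of 0.589 to 1.04, wider than the narrowest one and including 1. Whole counting was not checked, and no whole-number pair was found for its duplicate, Potri.011G058400. None of these intervals holds any difference between plants or pools.

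For the other 3 genes no single pair was found. The values of Potri.007G135300 fit a ratio of 39 reads in MOMT4-0 to 40 in the control. Any of 10 multiples, up to 390 and 400 reads, gives them. Here 0.935 pairs were foreseen by chance, and multiples of 1 ratio are not separate matches. For Potri.017G016700 2 pairs were possible, 371 reads in MOMT4-0 with 334 in the control and 381 with 343, where 1.34 were foreseen by chance. For Potri.011G058400 no whole-number pair up to its limit gave the ratio.

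The rows beside each gene on its chromosome differed in activity. Of the 16 neighbouring rows, 2 on each side of each gene, 9 had a mean of 1 RPKM or more and 4 were listed at 0 in both libraries. With the pseudocount 0 of the 9 were 2-fold apart between the lines, and without it 1 was, Potri.007G135100, the least abundant of the 9. Their log2 ratios with the pseudocount ran from -0.20 to 0.70 with a median of 0.08, 5 of them higher and 4 lower in MOMT4-0. Next to Potri.011G058400, at a gap of 7.01 kb, Potri.011G058500 had 16.0 RPKM in MOMT4-0 and 14.2 RPKM in the WT control. Next to Potri.004G049300, at 3.01 kb, Potri.004G049400 had 11.6 RPKM in MOMT4-0 and 12.3 RPKM in the WT control, a log2 ratio of -0.08. The other active neighbour of that gene, Potri.004G049100, had 16.4 RPKM in MOMT4-0 and 19.02 RPKM in the WT control, and its log2 ratio of -0.20 was the lowest of the 9. Both active neighbours of Potri.004G049300 thus had lower values in MOMT4-0, as that gene did, whereas the 1 active neighbour of Potri.011G058400 had a higher value. Of all poplar genes with a mean of 1 RPKM or more, 50.9% had the lower value in MOMT4-0, so these directions say little. Potri.011G058500 and Potri.004G049400 follow their NAC gene on the same side and span 8894 and 9105 bases. On the other side of Potri.004G049300, Potri.004G049200 was listed at 0 in both libraries, and on that side of Potri.011G058400, Potri.011G058300 had 0.078 RPKM in MOMT4-0 and 0.085 RPKM in the WT control. Both minor-pair genes therefore stand between an active and an inactive row.

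Around the more abundant pair, Potri.017G016600 had 22.0 RPKM in MOMT4-0 and 17.4 RPKM in the WT control, at a gap of 4.90 kb from Potri.017G016700. On the other side Potri.017G016800 starts 207 bases beyond that gene, the shortest gap of the 16, and had 7.99 RPKM in MOMT4-0 and 9.10 RPKM in the WT control. Beside Potri.007G135300, Potri.007G135400 had 11.3 RPKM in MOMT4-0 and 9.67 RPKM in the WT control at 3.75 kb, and Potri.007G135200, at 2.92 kb, was listed at 0 in both. The highest log2 ratio of the 16, 0.70, belongs to Potri.007G135100, a row of 763 bases with 2.31 RPKM in MOMT4-0 and 1.04 RPKM in the WT control, 2.22-fold apart without the pseudocount. Such low values over so short a row stand for few reads, and no counting interval was computed for it. The table gives no names for these rows, so their roles are not described.

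**Figure D4:**
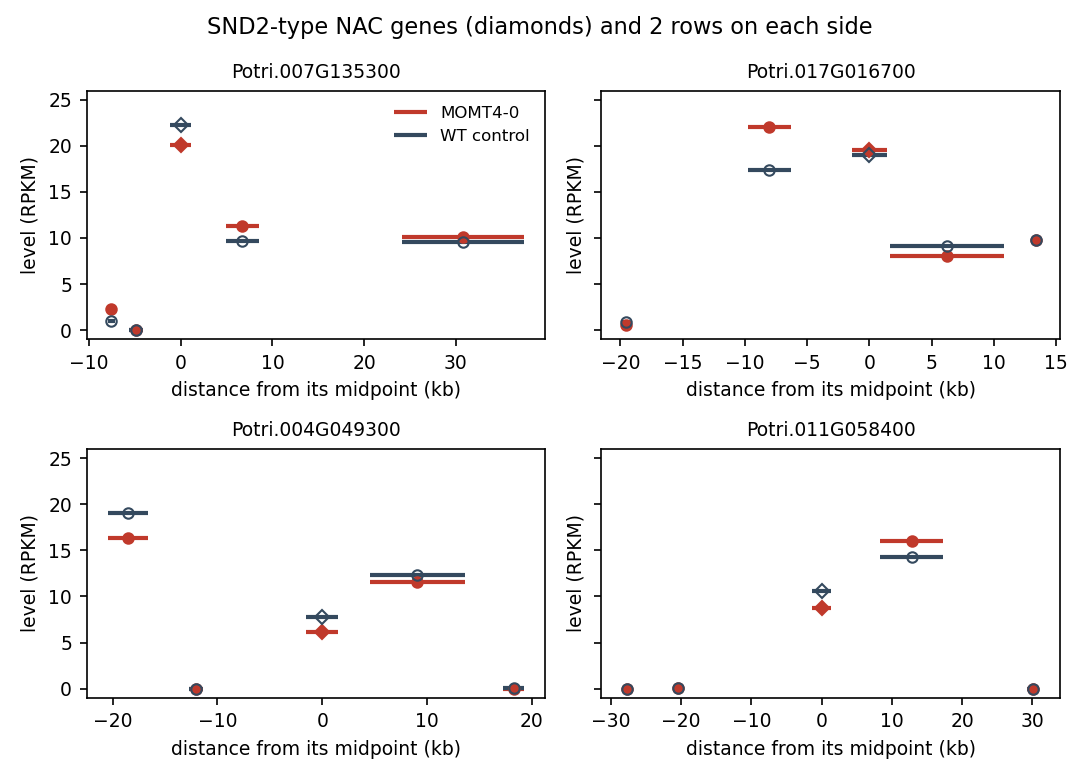
Level in RPKM (vertical axis) of each SND2-type NAC gene (diamonds) and of the 2 rows on each side of it (circles) against the distance in kb from its midpoint (horizontal axis), with horizontal bars drawn to each row's span; filled red, MOMT4-0, and open dark, WT control. 4 of the 16 neighbours are listed at 0 in both libraries, and of the 9 that pass the filter, Potri.007G135100, at the left of the first panel, is 2.22-fold apart in RPKM and the other 8 lie within 2-fold. Potri.007G135100 is the least abundant of the 9, with few reads behind its values.

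Over 2 libraries likeness of pattern is little more than likeness of level. By distance between log2(RPKM + 1) values, the gene nearest to Potri.007G135300 was Potri.001G369500, with 20.1 RPKM in MOMT4-0 and 22.4 RPKM in the WT control. Nearest to Potri.017G016700 was Potri.015G148300, with 19.5 RPKM in MOMT4-0 and 19.1 RPKM in the WT control. Nearest to Potri.004G049300 was Potri.013G119400, with 6.12 RPKM in MOMT4-0 and 7.85 RPKM in the WT control, and nearest to Potri.011G058400 was Potri.019G029400, with 8.75 RPKM in MOMT4-0 and 10.6 RPKM in the WT control. From 30 to 62 genes lay within 0.05 of each of the 4 on this scale, so these matches single out no gene.

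Directions rest on the headings of the value columns, MOMT4 and WT, and the titles of the samples use the same names. The short codes in the sample descriptions name the libraries the other way round, and by those codes every direction above would be reversed. MOMT4 is a foreign gene that the transgenic line was given, and the paper reports that its transcripts were highly abundant in the RNA-seq of that line. The single row without a poplar identifier, which the table does not name, had 1222 RPKM under the MOMT4 heading and 4.79 RPKM under the WT heading, so it was high under the heading followed here. The labelled tissue, young debarked stem, was not checked against marker genes.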

How the data were processed

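The authors used TopHat to align reads of strand-specific libraries to a P. trichocarpa genome taken from PlantGDB, and their deposited table gives RPKM per gene and library with the results of their own Cuffdiff comparison (log2 ratios, test statistics, p and q values), which were not used here. The submitters' processing notes also name Bowtie. Program versions and build are not given in the sources used here. The 2 rows whose Cuffdiff status was failed were left out. Starts are given with 1 added.

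From the RPKM values, log2 ratios were computed with a pseudocount of 1 RPKM for poplar genes whose mean reached 1 RPKM. No test was made, with 1 library per line. Genes of like level were the 200 nearest in log2 mean RPKM. Read totals were fitted to ratios of up to 60 reads in rows of at least 600 bases. Intervals are exact, at 95%. The fit of read totals and the 2-fold limit were tested on simulated whole reads. Shares, genes of like level, intervals and the whole-read pairs were not tested in this way. Genes were named by rule: the 4 genes, 2 rows on each side of each, and the nearest gene of each over both libraries. Other wood genes were also to be named, but these were not analysed here. Members and lists were chosen with earlier results of these data known. Alternatives were a pseudocount of 0.1, centring, no filter, a filter of 5 RPKM, a 1.5-fold limit, 100 or 1000 genes of like level, and shares with a pseudocount or times span. The tools were SciPy 1.17.1, NumPy 2.4.6 and pandas 2.3.3 under Python 3.11.15, with figures by matplotlib 3.10.9.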

Additional observations from a re-analysis of the deposited data

How the results depend on the processing

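No paired analysis was possible because each line has 1 library. A pseudocount cannot change the sign of a log2 ratio, and centring took off a median of only -0.0057, so that signs were kept is no check. Of the 4 SND2-type NAC genes, 0 were at least 2-fold apart under any alternative, including a limit of 1.5-fold. Over a pseudocount of 0.1 RPKM or centring, the log2 ratios ran from -0.15 to -0.14 for Potri.007G135300 and stayed at 0.04 for Potri.017G016700. They ran from -0.35 to -0.30 for Potri.004G049300 and from -0.28 to -0.25 for Potri.011G058400. The percentage of genes of like mean with a lower ratio than Potri.007G135300 was 34.5% among 200 genes, 41.0% among 100 and 27.5% among 1000. Multiplying RPKM by the span, a rough stand-in for reads, gave Potri.007G135300 a share of its pair of 45.3% in MOMT4-0 and 48.6% in the WT control, in place of 50.7% and 53.9%. This product is not scaled for length and favours the longer row, here Potri.017G016700, so it is no second measure of level. In RPKM Potri.007G135300 was the higher copy in both libraries. By the product Potri.011G058400 stayed above its duplicate, at 56.0% in MOMT4-0 and 54.8% in the control. The count of all poplar genes at least 2-fold apart was 405; it was 861 with a pseudocount of 0.1, 142 with a mean of at least 5 RPKM and 1621 with a limit of 1.5-fold.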
